A study of Mus musculus with 6 samples.

Results

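The mouse genome holds 215 autosomal protein-coding genes that span 500 kb or more in the RefSeq gene table (GRCm38.p6), and the DNA methylation of their bodies was compared between lung endothelial cells with and without Dnmt3a. A gene body was taken as all measured 1 kb tiles that lie fully inside the gene and at least 1 kb from its ends. The rule uses length only, not any methylation value. All 215 genes were measured, with 290 to 1658 tiles each (median 612), and together they hold 143144 of the 1954255 tiles of the series and 215 of its 15360 gene bodies. The comparison class was 7185 genes of 20 to 100 kb with 270437 tiles, called short genes below.

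Endothelial cells, which line blood vessels, had been isolated from mouse lung by flow cytometry, and their genomic DNA was read by tagmentation-based whole-genome bisulfite sequencing, which scores cytosine methylation genome-wide. The 3 samples labelled ko came from Dnmt3a knockout mice and the 3 labelled wt from wild-type mice (KO and WT below). The sources used here do not give the Cre driver or the allele, the age and sex of the mice, or whether each sample is a separate animal. The p-values therefore cover only sample-to-sample spread, and that spread may be technical. The values are methylation levels without read counts, so depth is unknown.

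DNMT3A is a DNA methyltransferase that places new methyl groups on cytosines in CpG pairs. It is recruited to chromatin through marks on histone H3, among them methylation of lysine 36, which is found over gene bodies but not only there. Bodies of genes are normally methylated, and methylation stops at unmethylated promoters and CpG islands. Very long genes are a peculiar class: most of their span is intron, many encode synaptic adhesion proteins, receptors and ion channels used mainly by neurons, and some lie at common fragile sites, where chromosomes break under replication stress.

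Over all tiles, the mean level was 63.7% ± 0.140 in KO and 69.0% ± 0.451 in WT (SD, n = 3 each). Between any pair of samples, r across tiles was 0.839 to 0.925, and tiles are not independent replicates. At the less methylated end of endothelial marker genes such as Pecam1 and Cdh5, the median WT level was 20.8% (range 2.43 to 26.5%, 10 of 10 genes measured), against 60.6% (48.6 to 72.1%) for 7 leukocyte genes and 53.5% (43.8 to 65.5%) for 4 erythroid genes. Epithelial and mesenchymal lists had medians of 30.2% and 19.4%, with some members as low as 1.66% and 1.67%, so those ends do not set these cells apart. In KO the medians were 9.83% for the endothelial, 57.6% for the leukocyte, 48.7% for the erythroid, 15.3% for the epithelial and 6.88% for the mesenchymal list, so the marker ends were lower in KO as well, and their part in the results was not tested. In such bulk DNA a change in some cells and a smaller change in all cells cannot be told apart. Methylation levels do not show the deletion itself.

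Long genes often contain further transcription starts deep inside their bodies, and the starts that lost most methylation in KO were of this kind. The RefSeq promoter table (GRCm38.p6) has 271 promoters for 169 of the 215 genes, and 269 of them lie on a measured tile. Printed here are the 250 bases that precede the start whose tile fell most in each of 4 genes, 5′ to 3′ on the strand of the gene, with CG pairs in capitals because these are the bases that carry the measured methylation.
Schip1, chr3:68572118-68572367, plus strand: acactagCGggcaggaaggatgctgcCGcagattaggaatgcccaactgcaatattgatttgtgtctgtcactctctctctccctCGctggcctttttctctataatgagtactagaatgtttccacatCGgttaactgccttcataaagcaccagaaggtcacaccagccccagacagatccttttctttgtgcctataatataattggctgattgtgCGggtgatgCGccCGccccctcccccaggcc
Elmo1, chr13:20472740-20472989, plus strand: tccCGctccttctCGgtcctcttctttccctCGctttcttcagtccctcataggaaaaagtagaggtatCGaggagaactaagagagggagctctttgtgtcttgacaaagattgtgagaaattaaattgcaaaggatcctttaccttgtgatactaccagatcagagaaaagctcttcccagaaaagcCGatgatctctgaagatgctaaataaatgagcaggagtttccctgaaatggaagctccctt
Pde1c, chr6:56369635-56369884, minus strand: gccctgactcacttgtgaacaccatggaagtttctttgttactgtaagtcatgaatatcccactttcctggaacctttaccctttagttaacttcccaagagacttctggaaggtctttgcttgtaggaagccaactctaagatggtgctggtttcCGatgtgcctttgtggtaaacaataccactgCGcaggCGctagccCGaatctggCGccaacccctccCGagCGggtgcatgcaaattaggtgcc
Magi1, chr6:93912964-93913213, minus strand: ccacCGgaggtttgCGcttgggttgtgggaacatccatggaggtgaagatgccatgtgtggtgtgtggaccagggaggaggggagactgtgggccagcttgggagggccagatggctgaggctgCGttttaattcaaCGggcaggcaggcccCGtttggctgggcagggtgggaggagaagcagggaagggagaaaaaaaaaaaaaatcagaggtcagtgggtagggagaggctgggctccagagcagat
The 4 stretches hold 7, 5, 7 and 5 CG pairs in this order. At least 5 CG pairs stood in 81.8% of the 300-base promoter windows of long genes and in 65.3% of all promoter windows.

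These 4 starts lie 283 to 508 kb inside their genes. The tile at the inner start of Schip1, which encodes a binding partner of the merlin protein, stood at 4.94, 9.29 and 7.22% in the KO samples and at 46.4, 44.5 and 50.9% in the WT samples. The groups lie far apart, with a difference of -40.1 points (SE 2.72, limma adjusted p = 2.49e-09). The Elmo1 tile, in a gene for an activator of Rac in cell migration, read 34.5, 30.7 and 30.0% in KO against 62.0, 72.7 and 66.4% in WT (adjusted p = 3.96e-06). For Pde1c, a phosphodiesterase that degrades cyclic nucleotides, the levels were 48.1, 41.3 and 41.7% against 84.0, 77.9 and 74.2% (adjusted p = 4.50e-06). For Magi1, a scaffold of cell junctions, they were 0.586, 2.81 and 2.40% against 32.1, 36.4 and 39.8% (adjusted p = 1.28e-09). In none of the 4 did a KO sample reach the lowest WT sample. At Schip1 and Magi1 the KO tile was close to unmethylated, while Elmo1 and Pde1c kept an intermediate level.

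Counted over all promoters of long genes, 40 of 269 start tiles were lower by at least 10 points at an adjusted p under 0.05 and 0 were higher, which is 14.9% against 16.7% of all promoters in the table. Over the whole table of tiles 16.2% were called lower. Starts within 2 kb of the outer gene start were already low, with a median level of 2.82% over the 6 samples, and 8 of 147 were called lower. Of the 122 starts farther inside, at a median level of 17.6%, 32 were called lower. Short genes had the same order of shares, 6.54% of 5703 outer starts and 21.5% of 1468 inner starts.

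The bodies of very long genes were less methylated in KO than in WT, but by a smaller margin than those of other genes. The mean body level over the 215 genes was 64.1, 64.5 and 64.3% in the KO samples and 69.3, 68.6 and 68.3% in the WT samples, a difference of -4.45 points. Short genes, at 67.4% ± 0.232 in KO and 73.6% ± 0.361 in WT, differed by -6.19 points. Long genes were thus 4.86 points below short genes in WT and 3.12 points below them in KO. This gap narrowed by 1.74 points, and the KO and WT samples did not overlap in it (exact permutation test, two-sided p = 0.10, which no test of 3 against 3 samples can undercut). The order by length was not a straight line: the difference was -7.05 points in genes of 100 to 200 kb, -6.40 in those of 200 to 500 kb and -3.18 in the 55 genes of 1000 kb or more.

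**Figure D1:**
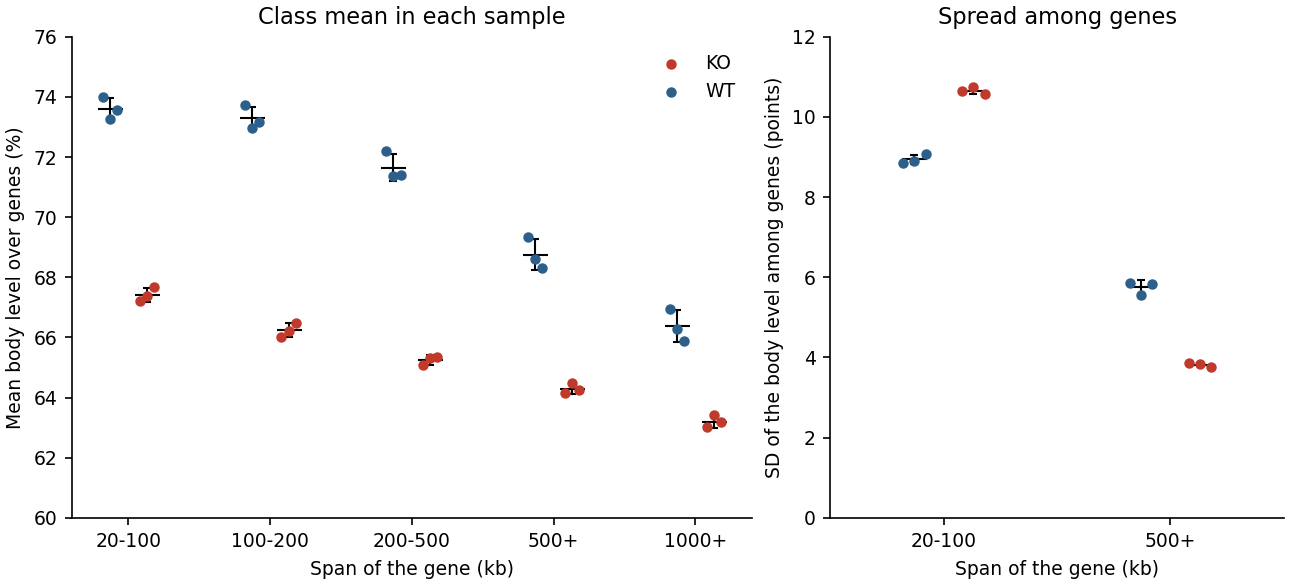
Left, mean body methylation level (%) over the genes of each span class in each sample, with WT in blue, KO in red, and the mean and SD of each group in black; the axis starts at 60%, and the class of 1000 kb or more is part of the class of 500 kb or more. Right, SD of the body level among genes in each sample, in percentage points. From the class of 100 to 200 kb upward, WT levels fall with span while KO levels fall less steeply. Between the classes of 20 to 100 and 100 to 200 kb, KO falls more (67.4 to 66.2%) than WT (73.6 to 73.3%). The spread among genes is smaller in KO than in WT for long genes and larger for short genes.

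Gene by gene, 75 of the 215 bodies were lower in KO by 5 points or more with a limma adjusted p under 0.05, which is 34.9%, where 53.3% of all 15360 gene bodies were lower. None of the 215 was higher, and the background for higher is 0.013%; at an unadjusted p under 0.05, again 0 were higher. Without the minimum of 5 points, 161 were lower, or 74.9%, near the 79.4% of all gene bodies. The KO samples all lay below the WT samples in 199 genes, or 92.6% (81.1% of all gene bodies), and overlapped with them in 16. This share was 68.9% in genes under 20 kb, which have few tiles, and 86.5% in short genes. It was 95.4% in genes of 100 to 200 kb and 95.1% in those of 200 to 500 kb, above that of long genes. The differences ran from -17.4 to 0.157 points with a median of -3.38, against a median of -5.37 for all gene bodies and -5.21 for short genes. Of the 55 genes of 1000 kb or more, 7 were lower, at a median of -2.29 points. Nearest to the limit were Ryr2, a calcium release channel, at -5.02 points and called, and Gpc6, a cell-surface proteoglycan, at -4.97 points and not called.

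Since all samples of a group shift together, the direction depends on the reference. After subtraction of the median tile level of each sample, 18 of the 215 were lower and 1, Zfp804b, was higher, with a median of 1.51 points (-0.48 over all gene bodies); 18.8% of all gene bodies were then lower and 1.99% higher. After scaling to a single mean tile level, 14 were lower and the same gene was higher, with a median of 1.96 points, while 17.2% of all bodies were lower and 5.73% higher. The median after scaling was also positive over all gene bodies, at 0.30 points, and over short genes, at 0.58 points. A positive median is thus not particular to long genes under scaling. Relative to the genome as a whole, the typical long gene therefore stood higher in KO than in WT, whereas its absolute level was lower.

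**Figure D2:**
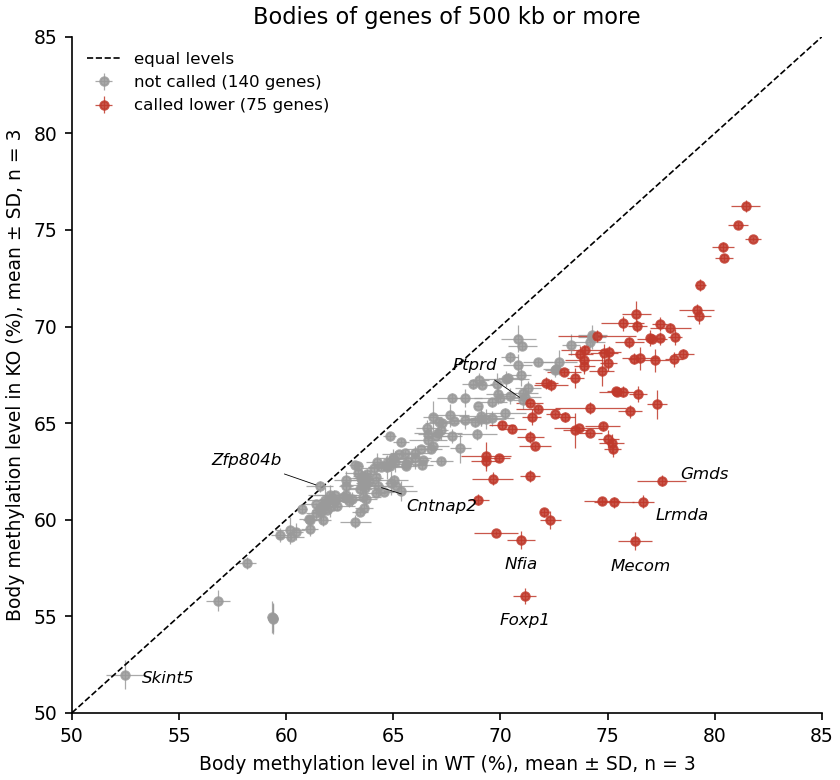
Mean body methylation level (%) of each of the 215 long genes in WT (horizontal) and KO (vertical), with SD over 3 samples as error bars; red points were called lower, grey points were not, and the dashed line marks equal levels. Genes near 60% in WT lie close to the line, and genes above 70% lie up to 17.4 points below it.

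The genes with the greatest losses encode transcription factors, a junction scaffold and enzymes, among others, and in the first of them the loss covered most of the body. Mecom, a zinc finger transcription factor known in endothelium and blood stem cells (chr3:29951296-30509759), stood at 59.3, 59.0 and 58.4% in KO and 77.2, 75.6 and 76.1% in WT. Its difference of -17.4 points (SE 0.722, adjusted p = 6.22e-06) was the largest of the 215, and 362 of its 513 tiles were called lower. Lrmda, a gene of melanocyte differentiation (chr14:22019504-23056093), read 60.6, 61.3 and 60.9% in KO against 77.3, 76.4 and 76.3% in WT, with 545 of 889 tiles lower. Gmds, an enzyme of GDP-fucose synthesis (chr13:31819583-32338762), read 61.8, 62.3 and 62.0% against 78.8, 77.1 and 76.7%. In these 3 genes the KO levels were within 1 point of each other, so the drop is many times the spread among samples.

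Foxp1, a forkhead repressor (chr6:98925342-99522746), had the lowest KO level of the 75 called genes, 55.8, 55.9 and 56.5%, against 71.7, 70.7 and 71.0% in WT. Magi1 (chr6:93675453-94283929) fell from 74.7% ± 0.836 to 61.0% ± 0.212. Arhgap26, a GTPase-activating protein (chr18:38601617-39376285), fell from 72.3% ± 0.507 to 59.97% ± 0.469. Nfia, a nuclear factor I transcription factor (chr4:97578066-98118876), fell from 71.0% ± 0.658 to 59.0% ± 0.468. The SE of these 4 differences was 0.691 to 0.730 points, and the largest adjusted p was 1.07e-05.

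At the other end were genes whose bodies hardly differed. Zfp804b, which encodes a zinc finger protein (chr5:6769030-7344378), stood at 61.7, 62.0 and 61.5% in KO and 62.3, 61.4 and 61.0% in WT. Gabrg3, a subunit of the GABA-A receptor (chr7:56716463-57387215), stood at 60.3, 60.6 and 60.7% against 61.0, 60.6 and 60.6%. In both genes the groups overlap, with differences of 0.157 (SE 0.750) and -0.205 points (SE 0.714). Ptprt, a receptor tyrosine phosphatase, differed by -0.375 points, and Cntnap5a and Cntnap5c, cell adhesion proteins of the neurexin superfamily, by -0.596 and -0.424. Grm7, a metabotropic glutamate receptor, differed by -0.507 points. Skint5, a member of a family expressed in thymus and skin, had the lowest WT level of all 215 genes, 51.7, 53.5 and 52.2%, and read 51.1, 52.2 and 52.5% in KO. Only for Iqcm, which encodes a protein with an IQ motif, did the groups not overlap among these 8 genes, at 64.0, 64.4 and 64.5% against 64.6, 64.7 and 65.2%, a difference of -0.508 points with an adjusted p of 0.496.

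The 5 genes of greatest span were all below the limit of 5 points. Ptprd, a receptor tyrosine phosphatase of synapse formation (2271 kb, chr4:75941237-78211742), stood at 66.2% ± 0.479 in KO and 71.0% ± 0.477 in WT, with a limma adjusted p of 0.000368 for -4.84 points. It passed the limit without KO replicate 2, at -5.03 points, and without WT replicate 3, at -5.005. Macrod2, an enzyme that removes ADP-ribose (1998 kb), differed by -4.50 points at an adjusted p of 0.00103. Cntnap2, a neurexin-related adhesion protein of axons (2241 kb), stood at 61.2, 62.2 and 61.7% in KO and 65.02, 64.3 and 63.5% in WT, a difference of -2.54 points. Lsamp, an adhesion protein of limbic neurons (2197 kb), differed by -1.84 points and Lrp1b, an LDL receptor relative (2058 kb), by -1.67 points. In each of the 5 the KO samples all lay below the WT samples. The same held in 96.4% of the genes of 1000 kb or more, 92.6% of all long genes and 81.1% of all gene bodies.

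Grouped by function, the losses were unevenly spread over 9 lists, which were chosen with earlier results of these data known and hold 150 of the 215 genes. For genes with neuronal roles the differences were small. Of 40 genes of synaptic adhesion and scaffolds, 2 were lower, Tenm4, a teneurin, at -7.50 points and Adgrl3, a latrophilin, at -7.28 points, and the list had a median of -1.82 points. Of 18 transmitter receptor and ion channel genes, 2 were lower at a median of -1.94 points. These were Cacna1c, the pore subunit of an L-type calcium channel of heart and vessel muscle, which stood at 66.6, 66.6 and 66.7% in KO and 75.8, 75.1 and 75.2% in WT, and Ryr2. None of the 3 cadherin genes was lower: Cdh13, which is also expressed in endothelium, differed by -3.63 points and Cdh12 by -1.26. Shorter genes of these lists had small differences too: the median was -2.40 points over 11 synaptic genes, 4 of them lower, and -2.15 points over 33 receptor and channel genes, 7 of them lower. Beside these counts stand 75 of 215 genes at a median of -3.38 points over all long genes, and 53.3% at a median of -5.37 points over all gene bodies.

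Of 8 guidance genes 4 were lower, at a median of -4.93 points, a share near that of all gene bodies: Sema6d, a transmembrane semaphorin, at -10.9 points, Slit3, a secreted ligand, at -6.77, Robo1, a Slit receptor, at -6.15, and Nell1 at -5.15. Among those that did not pass were the receptors Robo2 at -4.70, Dcc at -2.29 and Unc5d at -1.01. Dcc and Unc5d both bind netrins.

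Regulators of transcription and chromatin stood at the opposite end from the synaptic genes. Of 20 such genes 17 were lower, at a median of -7.96 points, with a median WT level of 72.3% against 63.9% for the synaptic list. Besides Mecom, Foxp1 and Nfia these included Zfhx3, a homeobox and zinc finger factor, at -11.7 points, Auts2 at -9.94, Sox6 at -9.11 and Hdac9, a histone deacetylase, at -8.18. The exceptions were Camta1 at -4.20, Rbfox1 at -1.93 and Khdrbs2 at -1.23 points. Rbfox1 and Khdrbs2 encode RNA-binding proteins best known from splicing in neurons, but Celf2 and Rbms3, RNA-binding proteins on the same list, were called lower. Of 80 shorter genes on the same list 56 were lower, at a median of -9.91 points. Of 23 signalling genes 12 were lower at a median of -5.86 points, both near the values of all gene bodies, from Arhgap26 at -12.4 to Fgf14, an intracellular FGF relative that binds sodium channels, at -1.001 points. Ptprg at -11.6 and Kalrn, a guanine nucleotide exchange factor, at -11.2 points were among those that fell.

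Genes known from endothelium or the vessel wall gave the highest share, 27 of 30 at a median of -7.80 points. Beside it stand 34.9% of all long genes and 53.3% of all gene bodies. The 3 that did not pass were Cdh13, Lama2, a laminin chain, at -3.48 and Arhgap24 at -2.84 points. The KO samples all lay below the WT samples in 30 of 30, near the 92.6% of all long genes (81.1% of all gene bodies). The median WT level of this list, 74.8%, was the highest of all lists, against 68.9% over all long genes. Among the long genes with the highest level in WT replicate 1, from 74.0 to 82.2%, 51 of 54 were called lower. Of the short genes in the same range, 1633 of 2448 were called lower. WT replicate 1 also enters these calls, so sorting by it favours calls in the highest group of either class. How far the WT level accounts for the share of the endothelial list was not tested. Of 59 shorter genes with a measured body on the same list 48 were lower at a median of -8.96 points, and the difference between long and shorter members was not tested. Of 19 genes at common fragile sites 5 were lower at a median of -2.29 points, from Wwox, an oxidoreductase, at -10.5 to Csmd1 at -1.02; Fhit stood at -2.98. Of 28 genes of trafficking, metabolism and genome upkeep 11 were lower at a median of -3.56 points, among them Wwox, and Galnt13, a glycosyltransferase, stood at -1.08. Of the 65 genes on no list 22 were lower at a median of -3.40 points. The lists overlap, with 37 genes on more than 1.

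**Figure D3:**
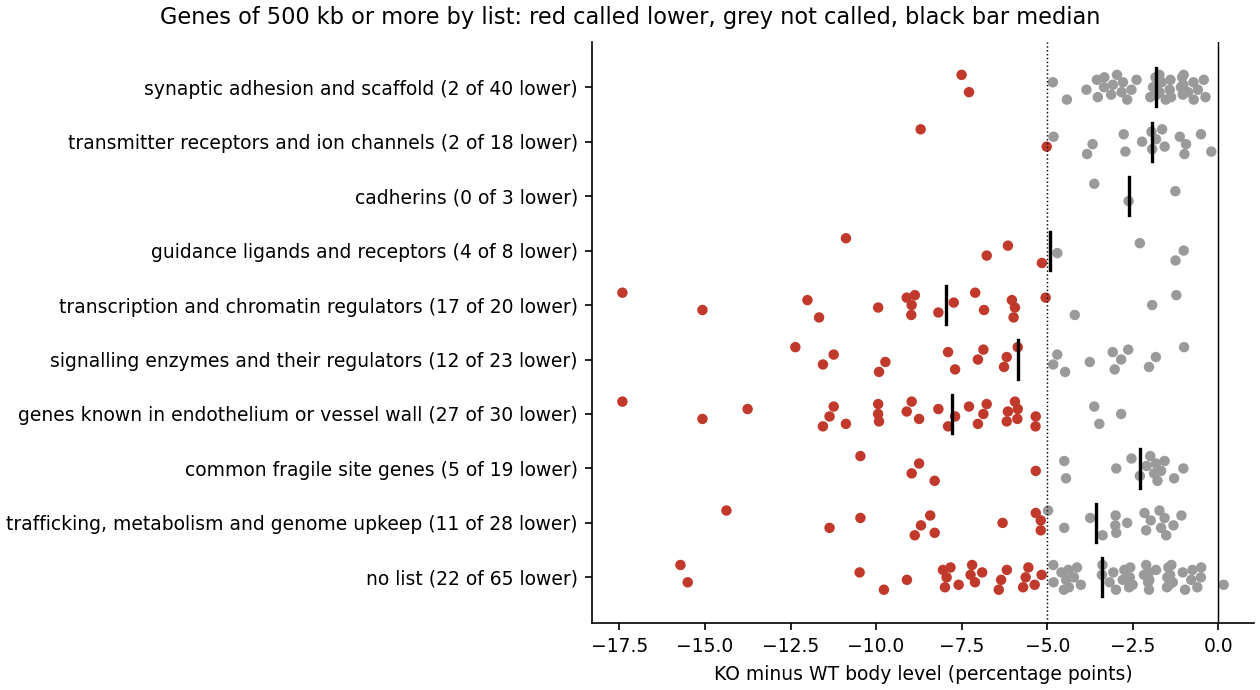
KO minus WT body level (percentage points) of each long gene, 1 point per gene, in 9 function lists and for the 65 genes on none; red points were called lower, grey points were not, the black bar is the median of the list and the dotted line marks -5 points. The synaptic and receptor lists lie mostly between -5 and 0, and the transcription and endothelial lists mostly below -5.

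The loss followed the level that a long gene has in WT. To keep the level and the difference in separate samples, the genes were sorted by WT replicate 1 into 4 groups of like size and KO was compared with the mean of WT replicates 2 and 3, a division chosen after the data were seen. From the lowest to the highest group the median differences were -1.04, -2.00, -4.43 and -7.62 points. Across the 215 genes the correlation was r = -0.754 (Spearman -0.860), given as a description, since genes share the same samples. Short genes in the same 4 ranges of level had medians of -4.59, -5.08, -6.21 and -6.04 points, with r = 0.183 across all 7185. That r covers a wider range of mean WT levels, 5.17 to 93.6% against 52.5 to 81.8% in long genes. The coefficients of the classes are therefore not directly comparable. In the highest group the median loss of long genes was larger than that of short genes, and in the others it was smaller.

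A related pattern appeared in the spread among genes. The SD of the body level among the 215 genes was 3.86, 3.84 and 3.77 points in the KO samples and 5.86, 5.55 and 5.84 in the WT samples, so the long genes lay closer together without Dnmt3a. Among short genes the SD went the other way, 10.7 ± 0.0864 in KO and 8.94 ± 0.108 in WT. The difference between the classes changed by -3.64 points, without overlap of the samples (exact permutation test, p = 0.10, the smallest possible). Inside single long genes the tiles spread more in KO: the SD over the tiles of a gene was larger in KO than in WT in 187 of the 215. The same count was not made for short genes, so this trait may not be particular to long genes.

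At like WT levels the gap between the classes depended on the level. Genes were binned by WT replicate 1, and KO was again compared with WT replicates 2 and 3, an alternative added after the data were seen and given with no test. At 60 to 65%, 57 long genes differed by -1.19 points and 558 short genes by -6.19. At 65 to 70% the values were -2.45 and -6.43 points, and at 70 to 75% they were -5.45 and -7.19 points. Above 75% the order was the opposite, with -8.42 points in 46 long genes and -5.28 points in 3544 short genes, whose WT level was 4.01 points higher.

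Within long genes, most tiles were somewhat lower and some formed longer stretches of called loss. The median tile differed by -3.31 points and the mean was -4.27. Of the 143144 tiles 16660 were lower by at least 10 points at an adjusted p under 0.05, or 11.6% (16.2% of all tiles; 19.99% in short genes), and 115 were higher, or 0.0803% (0.0796% of all tiles). The share of tiles lower ran from 70.6% in Mecom to 0 in 3 genes; 52 genes had at least 20% and 100 genes under 5%. Merged over gaps of at most 1 kb, the lower tiles formed 5904 stretches with a median length of 2 kb, of which 2245 were a single tile and 191, in 58 genes, held 10 tiles or more. Stretches were counted gene by gene, so those in nested genes that share tiles were counted more than once. The tiles called higher formed 103 stretches, none of 3 tiles or more.

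The longest stretch covered 56 kb of Lrmda (chr14:22042001-22098000), 22.5 kb downstream of the gene start, and stood at 55.0, 53.5 and 54.4% in KO and 79.7, 78.0 and 76.9% in WT. The deepest of the 8 stretches with the most called tiles lay in Zfhx3 (chr8:108693001-108740000), 414 kb inside the gene. It read 17.8, 17.1 and 17.0% in KO against 57.5, 57.2 and 58.4% in WT, a difference of -40.4 points over 47 kb, so that a partly methylated segment of WT was mostly unmethylated in KO. A second stretch of 41 kb followed in the same gene, at 52.5% ± 0.154 against 77.1% ± 0.553. Mecom held stretches of 45 kb near its start (53.3% ± 1.05 against 77.8% ± 0.753) and of 41 kb at 281 kb from the start (47.3% ± 0.551 against 75.7% ± 2.19). Magi1 held stretches of 43 and 40 kb, at 42.8% ± 0.706 and 52.2% ± 0.829 in KO against 67.4% ± 1.17 and 72.7% ± 1.66 in WT. A second stretch of Lrmda, 36 kb long, fell from 80.7% ± 1.31 to 54.5% ± 1.35. Stretches were drawn from called tiles, so their differences describe them and are no test.

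**Figure D4:**
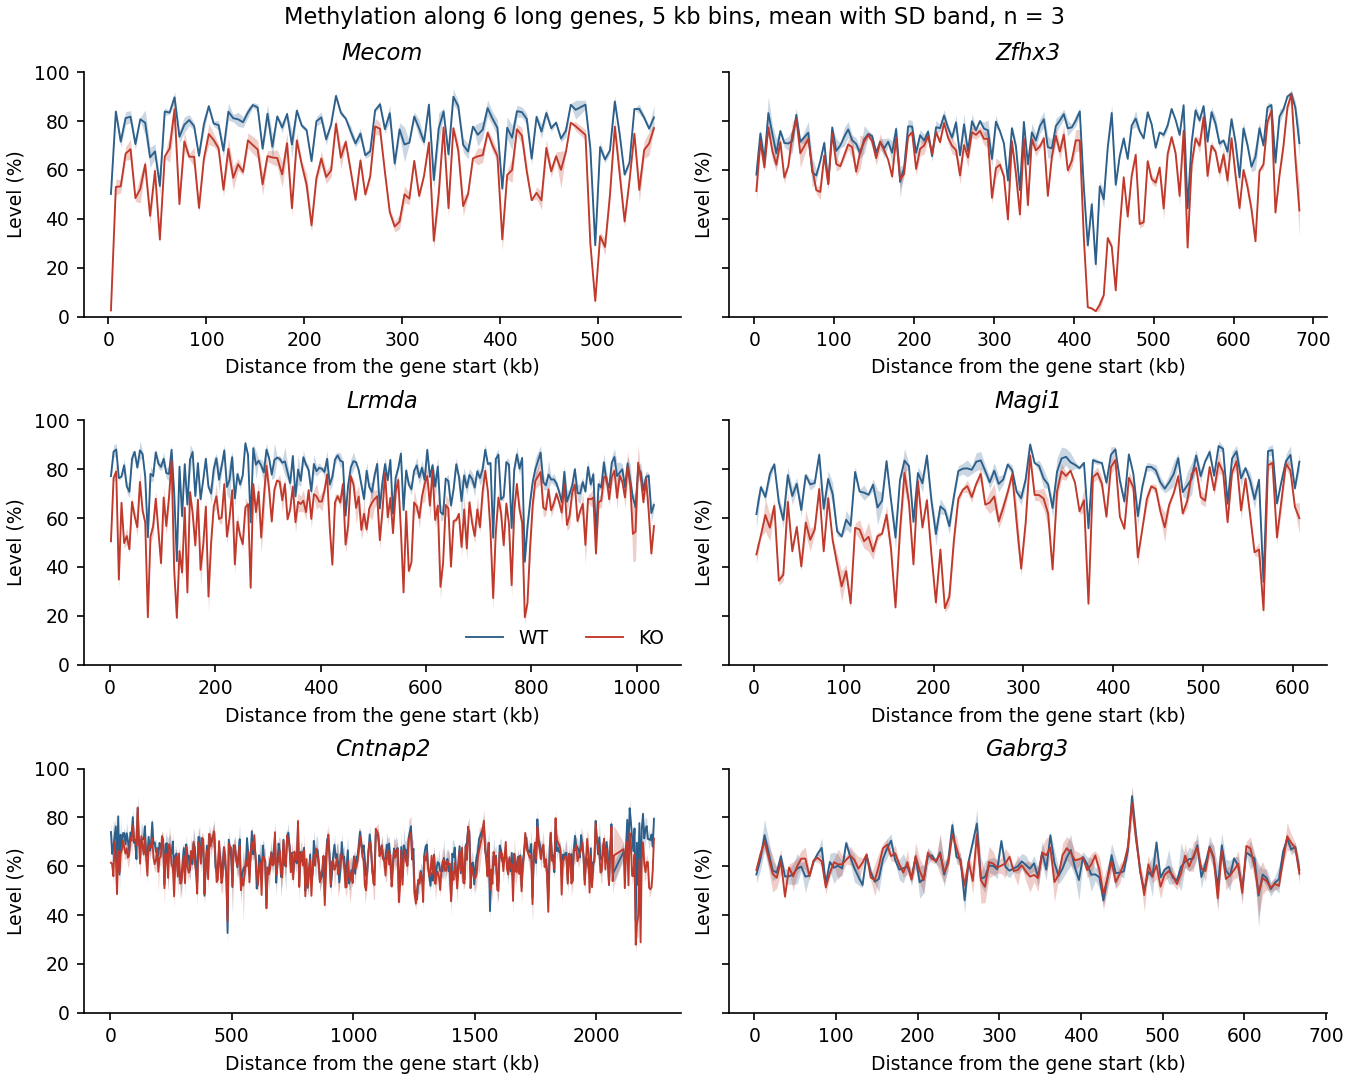
Methylation level (%) along 6 long genes in bins of 5 kb by distance from the gene start (kb); lines are means of the 3 WT (blue) and 3 KO (red) samples and bands are their SD. In Mecom no bin has KO above WT and 93 of 111 bins are lower by at least 10 points, Zfhx3 has a segment near 0 in KO around its longest stretch, and in Gabrg3 KO is above WT in 61 of 132 bins.

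In bins of 5 kb, KO lay below WT by at least 10 points in 93 of 111 bins of Mecom, 143 of 206 of Lrmda, 74 of 122 of Magi1 and 62 of 136 of Zfhx3. In Gabrg3 only 2 of 132 bins did so. Cntnap2 had 28 of 433 such bins, the deepest at -33.3 points. Cntnap2 also has a promoter 2184 kb inside the gene, picked after its values were seen. Its tile stood at 11.3, 15.1 and 14.5% in KO and 42.7, 49.0 and 40.1% in WT. This promoter lies in a broader region of loss towards the far end of the gene. All measured bins centred from 2117.5 to 2237.5 kb had KO below WT, among them the deepest bin, at 2167.5 kb. A gene with a small mean difference thus still held a region of larger loss.

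Over the pooled tiles of long genes, loss declined with distance from the nearest gene end. In bins of 1 to 5, 5 to 10, 10 to 50, 50 to 100, 100 to 250 and over 250 kb from the nearest gene end, KO minus WT was -6.18, -5.28, -5.07, -4.89, -4.57 and -3.57 points. The step from the outermost to the innermost bin, 2.60 points, separated KO from WT samples (exact permutation test, p = 0.10, the smallest possible). The innermost bin draws more on the longest genes, and genes of 1000 kb or more differed by only -3.18 points on average. Position inside a gene and gene length are therefore mixed in this step and were not tested apart. At matched distance short genes lost more, with differences of -7.05, -6.36 and -6.38 points in the first 3 bins, so the gap of 0.871, 1.07 and 1.31 points was there at each distance and smaller than the 2.20 points over pooled tiles. For the 169 genes with known strand, the first 1 to 5 kb after the gene start stood at 58.3% in WT and 50.99% in KO and the last 1 to 5 kb at 72.1% and 66.8%, a difference of -2.02 points between start and far end. Farther in, at 50 to 100 kb, the far side had the larger loss, -5.52 against -4.58 points.

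Long genes also lie far from unmethylated DNA. A tile under 10% in the mean of all samples is called a valley here, so KO levels enter the definition; values with valleys defined from WT alone follow. Of the tiles of long genes, 49.99% lay over 200 kb from the nearest valley, against 2.86% of the tiles of short genes. Valley tiles made up 0.314% of the tiles of long genes and 1.30% of those of short genes. In 70 of the 215 long genes there was no valley tile. This count does not set long genes apart, since the 7185 short genes held 3504 valley tiles in all and many had none. The loss fell steeply with distance from a valley in both classes. With valleys 1, 2 to 5, 6 to 20, 21 to 50, 51 to 200 and over 200 kb away, long genes differed by -14.8, -10.6, -7.39, -6.28, -4.81 and -2.98 points. Short genes differed by -14.1, -9.61, -6.77, -5.88, -4.98 and -1.98 points in the same bins.

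At equal distance from a valley, long genes lost more than short genes in 5 of these 6 bins. The class difference was -1.02 points at 2 to 5 kb and -1.004 beyond 200 kb, where the samples of the groups did not overlap (exact permutation test, p = 0.10 each, the smallest possible). At 1, 6 to 20, 21 to 50 and 51 to 200 kb it was -0.759, -0.614, -0.399 and 0.168 points, where they overlapped (exact permutation test, p = 0.20 to 0.30). When the tiles of short genes were weighted to the valley distances of long genes, a comparison added after the data were seen, their difference became -3.75 points. The gap of 2.20 points over pooled tiles then turned to -0.529 points, with the sign opposite. With valleys taken from the WT mean alone, also added after the data were seen, that gap was -0.442 points. Long genes then differed by -13.1, -10.7, -7.26, -6.24, -4.88 and -3.10 points from the nearest to the farthest bin, and short genes by -12.8, -9.56, -6.82, -6.02, -5.24 and -2.13. At 51 to 200 kb long genes lost 0.353 points less, without overlap of the samples (exact permutation test, p = 0.10). The share of tiles over 200 kb from a valley and the difference of a gene correlated at r = 0.551 across the 215 genes. The number of measured tiles per kb, which also moves with the difference at r = -0.545, and span, at r = 0.278, are given as descriptions, and their part in the result was not tested.

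**Figure D5:**
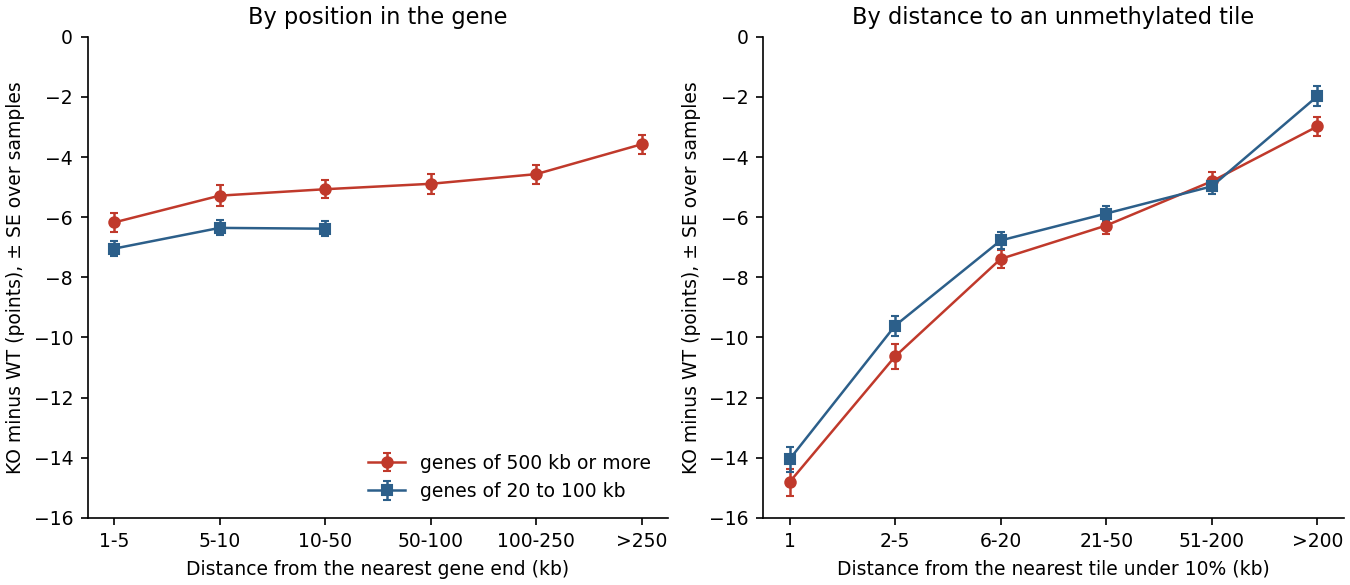
KO minus WT methylation (percentage points, mean over tiles, with the standard error from 3 samples a group) in genes of 500 kb or more (red) and of 20 to 100 kb (blue), left by distance from the nearest gene end and right by distance from the nearest tile under 10% (kb). Losses are smaller in long genes on the left, and on the right both classes follow nearly the same curve from about -14 points to -2.98 and -1.98 points.

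The surroundings of long genes changed with them. Tiles within 200 kb on both sides and in no protein-coding gene had 64.0% ± 0.110 (KO) and 68.2% ± 0.533 (WT), and differed by -4.11 points beside -4.45 in the bodies. Body and flank were therefore nearly level, 0.596 points apart in WT and 0.255 in KO, whereas short genes stood 5.38 points above their flanks in WT and 5.997 in KO. Across the 215 genes the differences of body and flank correlated at r = 0.687. Of the 215 genes 9 lost at least 5 points more than their flanks and 4 lost less, against 9.26% and 11.7% of all gene bodies.

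The 9 were Mecom, Lrmda, Gmds, Magi1, Nfia, Zfhx3, Ptprg, Frmd4a and Auts2. In Mecom the body fell from 4.13 points above its flanks to -6.65 points, that is below them, a change of -10.8 points (adjusted p = 0.000258). Gmds fell from 10.9 points above its flanks to 0.966 above. In Nfia, Frmd4a and Magi1 the body was within 2 points of the flanks in WT and 7.44 to 9.56 points below them in KO. The 4 genes in the other direction were Fam155a, Ptprn2, Tmem132d and Dlgap2, whose flanks differed by -9.43 to -7.44 points.

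Some members share tiles. Schip1 lies wholly within Iqschfp, an annotated fusion with its neighbour, and Gm37013, Gm38666 and Gm38667 are nested entries over the clustered protocadherin genes with nearly identical tiles, at -4.37, -4.45 and -4.51 points. Of the tiles of long genes 93.3% lie in no other annotated gene.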

How the data were processed

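Methylation was measured in 6 samples, 3 KO and 3 WT, grouped by the genotype in the labels; per the labels, each started from 30 ng of DNA, and 3 paired-end libraries with reads of 100 bases were made of it. The submitters' processing notes name BWA 0.7.8 and mm10. The deposited table gives a fraction from 0 to 1, the methylation level, per 1 kb tile and sample; the sources used here give no caller, smoothing or coverage filter. Without read counts, depth is unknown and no interval was computed, and the planned model of read counts was replaced by limma.

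Fractions were turned into percent and averaged over the tiles of each gene body (at least 3 tiles) or flank (at least 20 tiles). limma 3.58.1 (R 4.3.3) with a variance trend was run over all gene bodies, tiles or body-minus-flank values, with Benjamini-Hochberg adjustment over each whole table; calls needed an adjusted p under 0.05 and 5 points (tiles 10 points). Single values per sample were compared by two-sided exact permutation tests. Of tiles shared by both length classes, 517 were given to the long genes. Tests were run first on simulated data. Python 3.11.15, numpy 2.4.6, pandas 2.3.3, scipy 1.17.1 and matplotlib 3.10.9 were used.

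Genes, promoters and strand came from RefSeq tables of GRCm38.p6, the assembly named mm10; exons, introns and untranslated regions were not analysed here. The genes, lists and tests were chosen with earlier results of these data known. Genes were named by rule: the 8 with the most and the 8 with the least negative difference, the 5 of greatest span, the most and least negative of each list, those of the 8 stretches with the most called tiles, and the 4 whose start tile fell most; other genes were named after their values were seen, and 1 gene of the rule is not reported here. Alternatives covered the tile summary, edges, overlaps, length limits, valley distance, scaling, variance model, thresholds, flank width, the replicate block and each sample left out.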

Additional observations from a re-analysis of the deposited data

How the results depend on the processing

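Of the 75 genes called lower, 65 to 75 were also called with other tile summaries, edges or variance models and without each sample (66 to 75), but 18 after centring and 14 after scaling, where 77 and 63 of the 215 kept their sign. The share lower, 34.9%, was 30.2 to 36.7% with the median of tiles, 5 kb edges, tiles of a single gene, tiles over 20 kb from a valley, a logit scale, no variance trend, at least 10 tiles or without members that share all tiles with another, and with each sample left out in turn (30.7 to 36.7%). It was 44.4% at a limit of 300 kb, 12.7% at 1000 kb, 74.9% with no minimum difference, 6.98% at 10 points, 8.37% after centring and 6.51% after scaling, and 1 gene was then higher after either. The class difference of -4.45 points became 0.44 after centring, 0.93 after scaling, -5.25 at 300 kb and -3.18 at 1000 kb; leaving out each sample gave -4.66 to -4.16.

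The gap of 1.74 points was 1.55 to 1.88 without each sample. It was 2.15 with the median of tiles, 0.997 over 20 kb from a valley, 0.939 at 300 kb, 3.01 at 1000 kb, 2.20 with tiles pooled and -0.529 with short-gene tiles weighted to valley distance (-0.442 with valleys of the WT mean). In bins of mean level under 60, 60 to 65, 65 to 70, 70 to 75 and over 75% it was 7.36, 5.06, 1.10, -0.30 and -2.50 points, the last from 7 long genes; these bins use KO levels too. By WT replicate 1, against WT replicates 2 and 3, it was 3.86, 5.001, 3.98, 1.74 and -3.14 points.

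Of member tiles 11.6% were lower, 2.99% at 20 points, 4.46% centred, 4.36% scaled and 8.65 to 10.3% without each sample. Lower calls were 99.3% of their calls, 81.2% centred and 73.5% scaled. Flanks of 100 kb left 2 bodies higher relative to flanks in place of 4. After scaling, the position gaps were 0.324 and 0.955 points at 1 to 5 and 10 to 50 kb, the inner minus outer difference 2.93 and start minus far end -3.22. With valleys under 20%, the valley gaps were -0.612 points inside valleys (0.134 before), -0.201 at 51 to 200 kb and -0.885 beyond 200 kb; with valleys of the WT mean, 0.353 at 51 to 200 kb (0.168 before).

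Of the 37 genes named by rule, 21 changed sign after centring and scaling, in points: Arhgap24 2.05 and 2.35, Cdh12 3.64 and 3.68, Cdh13 1.27 and 2.03, Cntnap2 2.35 and 2.56, Cntnap5a 4.30 and 4.35, Cntnap5c 4.47 and 4.27, Csmd1 3.87 and 3.88, Fgf14 3.89 and 3.56, Gabrg3 4.69 and 4.71, Galnt13 3.81 and 3.86, Grm7 4.38 and 4.31, Iqcm 4.38 and 4.72, Khdrbs2 3.66 and 3.76, Lrp1b 3.22 and 3.47, Lsamp 3.06 and 3.25, Macrod2 0.39 and 0.89, Pde1c 1.81 and 2.19, Ptprd 0.056 and 0.71, Ptprt 4.52 and 4.72, Skint5 4.39 and 3.72, Unc5d 3.88 and 3.99. With the median of tiles, Gabrg3 was at 0.14, Ptprt at 0.14 and Zfp804b at -0.076; leaving out each sample moved Zfp804b between -0.11 and 0.50. These are differences near 0. Cacna1c, Elmo1, Schip1 and Tenm4 no longer passed the limit after centring or scaling, nor did Wwox after scaling.

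Replicate numbers are shared by the groups, but deviations of same-numbered samples correlated at 0.023, -0.003 and 0.025 across gene bodies, so the numbers do not pair samples; with 3 pairs, not every sample correlated best with its own number. With the replicate block, 34.9% of bodies and 11.6% of tiles were lower, and 9 and 4 bodies were lower and higher relative to flanks. The coverage minimum was not run, since the table has no read counts. Missing depth limits all values: the precision of single tiles cannot be judged. Each p of 0.10 is the smallest the design gives and says nothing on stability.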
